A study of Drosophila melanogaster with 4 samples.

Results

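The noncoding RNAs roX1 and roX2 and the genes of the male-specific lethal (MSL) complex, msl-1, msl-2, msl-3, mof and mle, were followed in ovarian RNA of Drosophila melanogaster. These 7 genes were chosen by their FlyBase symbols from 17773 gene targets, and all 7 passed the filter on low counts. RNA came from ovaries of adult females kept for 20 days at 29 °C, in 2 genotypes with 2 libraries each. All flies carried tj-GAL4, a driver active in somatic follicle cells, and tubulinGal80ts, a repressor of GAL4 that loses its activity when the flies are kept warm. Control flies carried nothing further, and tumor flies also carried UAS-aPKCΔN, an N-terminally truncated atypical protein kinase C, and UAS-RasV12, an oncogenic Ras. Control tissue was cut down to follicles that had not begun yolk uptake, tumors were used whole, and a protease and a filter then served to enrich the follicle epithelium of both. The series calls the libraries biological replicates, so p-values of the fits rest on the spread between libraries, with its estimate shared over genes. Nothing in the labels says how many animals went into each library.

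In Drosophila males the MSL proteins assemble with either roX RNA, coat the X chromosome and acetylate histone H4, and X-linked genes are transcribed more strongly as a result. In females the RNA-binding protein Sex lethal (Sxl), with its partner Unr, blocks translation of msl-2 mRNA. Without MSL2 protein the complex does not form and the roX RNAs are unstable, although the genes of the other subunits are transcribed in both sexes. MOF also serves in the non-specific lethal (NSL) complex, which acts at promoters in both sexes. Messenger RNA levels do not report the translational block, and no protein was measured.

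Libraries held 41248098 to 50971937 estimated counts. Over all 9402 genes tested, 23.4% were higher and 21.2% lower in tumor, and counts of listed genes are to be read against these shares. Follicle epithelium markers were present in both genotypes. Of 10 tested markers 3 were higher and 3 lower in tumor, and their summed level was 1853 to 2256 CPM (counts scaled to a common library total) in control and 2147 to 2422 in tumor. Both genes carried by the transgenes were higher in tumor, aPKC with 1910 and 2482 counts in control against 54944 and 73836 in tumor, and Ras85D with 676 and 215 against 102550 and 109225. Germline markers were present in both genotypes, at 1112 to 1125 summed CPM in control and 384 to 423 in tumor, and 9 of 13 fell while none rose (8 fell and 3 rose when scaled on ribosomal protein genes). The sum hides unlike markers. stau (4011 and 5593 counts in control, 5516 and 5491 in tumor) and nanos (3669 and 3719, 3710 and 3531) did not pass. By contrast, osk went from 5035 and 12949 counts to 0 in both tumor libraries, and otu from 1524 and 1574 to 7 and 14. Of 11 ovarian muscle markers 4 of 10 tested fell, with 418 and 741 summed CPM in the control libraries and 342 and 233 in the tumor libraries. Their median log2 fold change was -1.69, and between -2.28 and -1.16 with a library left out. Fewer of them, and fewer of all genes, were then called. Blood cell markers stood at 273 to 364 summed CPM in control and 689 to 979 in tumor, with 5 of 9 higher. The largest control counts were those of crq, at 11113 and 10666 against 11690 and 10426 in tumor, which did not pass. srp had 2630 and 1966 counts in control against 1326 and 723 in tumor and did not pass either. Among the 5 higher markers, NimC1 rose from 10 and 9 counts to 657 and 627, and Pxn from 751 and 979 to 12802 and 24052. In bulk RNA, fewer cells of a type and less RNA per cell cannot be told apart. Summed levels were 12.4 to 14.8 CPM in control and 17.3 to 21.2 in tumor over 4 fat body markers, of which Lsp1beta was at 0 throughout, and 6.06 to 6.43 and 4.40 to 4.80 over 6 neuron markers, of which elav was at 0 throughout.

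Male tissue was looked for through testis and Y-linked genes, since the roX RNAs are best known from males. Of 14 testis genes 6 were at 0 in all 4 libraries (dj, tomb, Mst87F, fzo, Mst98Ca and ProtB), and betaTub85D had 2 counts in 1 library and 0 in the others. Targets of neighbouring genes overlap, as described below, and whether reads of genes at 0 were counted elsewhere was not tested. Only 3 testis genes had enough counts to be tested: ocn, with 1021 and 890 in control against 879 and 823 in tumor, did not pass, aly fell from 27 and 48 counts to 1 and 0, and janB rose from 0 in both control libraries to 61 and 403 in tumor. Neither aly nor janB was called without control 1, control 2 or tumor 2. The locus sum of janB did not pass (log2 fold change -0.16, edgeR adjusted p = 0.25). Targets of Y-linked genes were not empty. They held 0.0238% and 0.0305% of all counts in control against 0.0512% and 0.0814% in tumor, and of 10 tested Y-linked genes on the list 5 were higher and 2 lower in tumor. Fewer of these 10, and fewer of all genes, were called without control 1, control 2 or tumor 2. Their median log2 fold change was 1.94 with all libraries. It was 1.57 without control 1, 2.52 without control 2 and 1.60 without tumor 2. The part of these Y-linked counts in the member results was not tested.

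roX1 fell in tumor and roX2 did not pass the test. Estimated counts of roX1 (lncRNA:roX1, FBgn0019661) were 2161 and 2474 in the control libraries and 374 and 289 in the tumor libraries. On the deposited TPM scale, which divides by target length, its level was 34.5 ± 1.8 in control and 5.52 ± 0.46 in tumor (mean ± SD, n = 2 libraries). Both control libraries stood far above both tumor libraries, and the distance between replicates was small beside the distance between genotypes. The fitted log2 fold change was -2.88 ± 0.17 (SE of the fit; edgeR quasi-likelihood test with Benjamini-Hochberg adjustment over 9402 genes, adjusted p = 0.0018), a level 7.37-fold lower in tumor. The call held in each of 23 alternatives. These include thresholds of 0.01 and 0.1 on the same fit, and sums of roX1 counts with those of its neighbours yin (-3.62) or ec (-1.60). Apart from these sums, log2 fold changes ran from -3.04 without tumor 1 to -1.91 on log2(TPM + 5). With a replicate block the edgeR adjusted p was 0.011.

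roX2 (lncRNA:roX2, FBgn0019660) had 722 and 908 counts in control against 779 and 722 in tumor. Its TPM was 21.4 ± 0.3 in control and 22.3 ± 1.0 in tumor (mean ± SD, n = 2). The unscaled counts of the genotypes interleave, and on the TPM scale control 2 and tumor 1 differ by less than replicates do. Scaled for depth, both tumor libraries lay below both control libraries, at 16.1 and 16.0 CPM against 18.0 and 18.6. The log2 fold change was -0.18 ± 0.17 with a 95% interval from -0.65 to 0.28 (edgeR adjusted p = 0.43). A change anywhere within these bounds is compatible with the data. The sign depended on the scaling: it turned positive with TPM values and with scaling to ribosomal protein genes. The ratio of roX1 to roX2 TPM was 1.69 and 1.54 in control and 0.271 and 0.226 in tumor. Thus roX1 was the more abundant of the pair per target length in control and the less abundant in tumor. With 2 libraries against 2 the exact two-sided permutation test gives p = 0.333, the smallest this design allows.

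**Figure D1:**
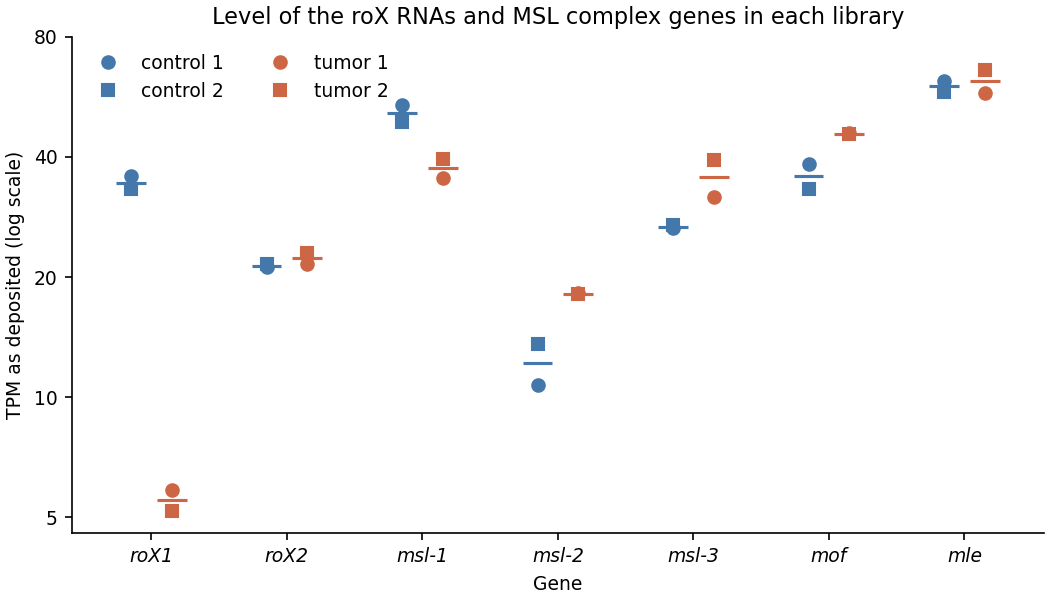
TPM as deposited, on a log scale, of the 2 roX RNAs and 5 MSL complex genes in each library, with circles for replicate 1, squares for replicate 2 and bars for the group means. roX1 drops from 35.7 and 33.2 TPM in control to 5.85 and 5.19 in tumor, while roX2 lies between 21.1 and 23.0 TPM in all 4 libraries.

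The values of both roX genes, like those of the other members, carry a limit that comes from how reads were counted. For 99.3% of annotated genes the deposited target length equals the gene's span, introns included, plus 4000 bases. A target was taken to run from 2000 bases before to 2000 bases after the gene, so that neighbouring targets overlap. No target coordinates were given, and the exon shares and locus sums rest on this even split. In the BDGP6.54 annotation roX1 lies on chromosome X from 3857230 to 3862697 on the minus strand. Its exons fill that span, and 24.6% of its exon sequence lies outside the targets of other genes. Upstream, 268 bases away on the same strand, lies yin, a gene of the oligopeptide transporter family, and 1732 exonic bases of yin are inside the roX1 target. At the other end the gene ec, which encodes a ubiquitin protease family protein, overlaps roX1 by 392 bases on the opposite strand.

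Both neighbours moved with roX1. Counts of yin were 1821 and 1556 in control against 22 and 7 in tumor, which the fit put at a log2 fold change of -6.96 ± 0.61 (SE; edgeR adjusted p = 0.0035). Counts of ec were 1721 and 2326 in control against 1239 and 1099 in tumor, which the fit put at a log2 fold change of -0.85 ± 0.14 (SE; edgeR adjusted p = 0.012), a call that ended without control 1 or control 2 (adjusted p up to 0.083). Added over the 3 targets, the locus sum was 5703 and 6356 in control against 1635 and 1395 in tumor. On the log2 scale it fell by 2.06 ± 0.10 (SE; edgeR adjusted p = 2.9e-04). The sum of roX1 and ec, without the counts listed for yin, fell by 1.60 (edgeR adjusted p = 0.0019). How many of the roX1 counts came from yin or ec transcripts was not tested, since the files hold no positions of reads.

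For roX2 the neighbourhood leaves even less sequence of its own. It lies on chromosome X from 11579065 to 11580432 on the plus strand, and 0% of its exon sequence is outside other targets. Upstream is CG11695 at a distance of 258 bases, listed at 0 and 145 in control and at 0 in both tumor libraries. Downstream, 339 bases away on the same strand, is nod, which encodes a kinesin-like protein needed for chromosome segregation in female meiosis. nod was listed at 0 in all 4 libraries, and 1145 of its exonic bases lie inside the roX2 target. That target also holds 1618 exonic bases of CG11695 and 476 of pkm. The roX2 count is therefore a count for a region with exonic parts of all 3 neighbours, and what share came from roX2 was not tested. The locus sum of roX2, CG11695, nod and pkm was 808 and 1170 in control against 921 and 876 in tumor, with a log2 fold change at -0.19 (edgeR adjusted p = 0.42).

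**Figure D2:**
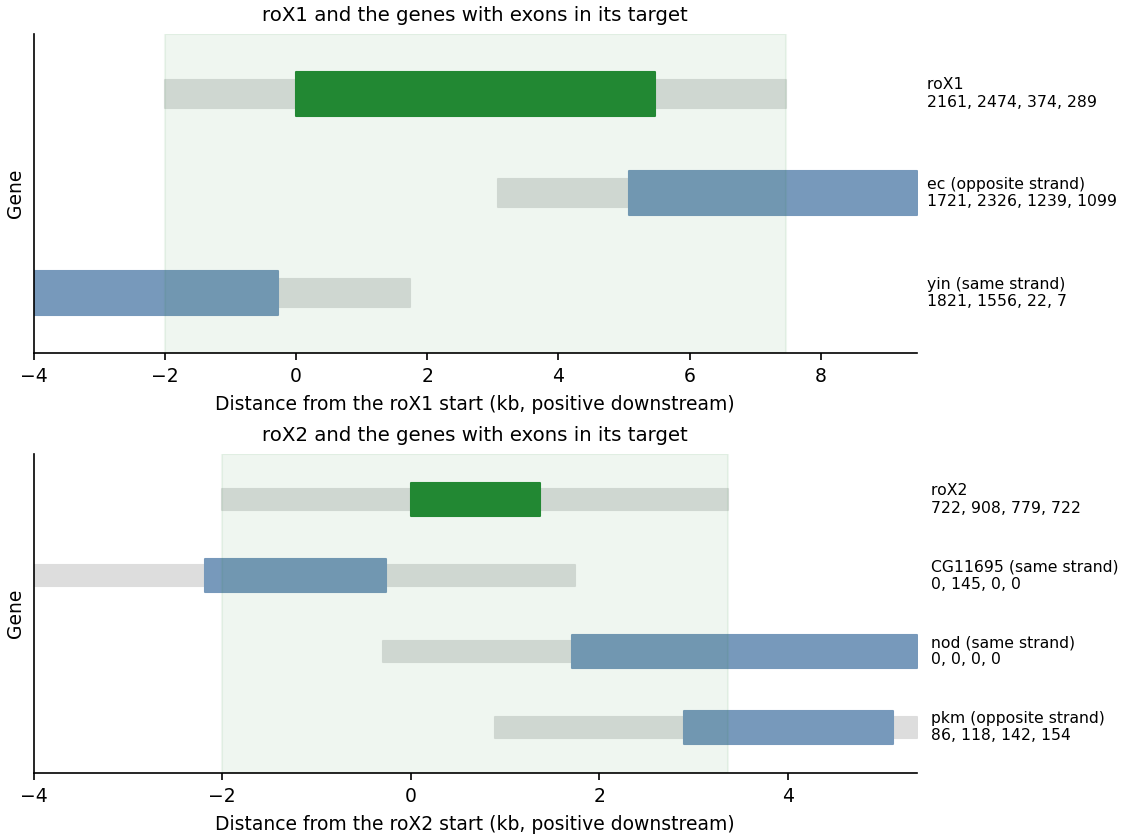
Position of roX1 (upper panel) and roX2 (lower panel), in green, and of the genes with exons in their targets, in blue, by distance in kb from the roX start. Grey bars show the 2000 bases assumed on each side, and a green band shows the roX target. The numbers at the right are estimated counts in control 1, control 2, tumor 1 and tumor 2, and show yin falling from 1821 and 1556 to 22 and 7 beside roX1 and nod at 0 in every library beside roX2.

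Among the protein subunits msl-1 fell, and the other 4 did not pass the test. The product of msl-1 (FBgn0005617, chromosome 2L, 18683720 to 18688800, minus strand) is the scaffold on which the complex assembles. It had 3134 and 3500 counts in control against 2176 and 2108 in tumor. Both tumor libraries were below both control libraries, by more than the replicates differed. The log2 fold change was -0.70 ± 0.11 (edgeR adjusted p = 0.010), a level 1.63-fold lower in tumor, and the locus sum fell by 0.38 (edgeR adjusted p = 0.0095). The call ended without control 1 (adjusted p = 0.059) and under scaling on ribosomal protein genes, where the log2 fold change was -0.08 (adjusted p = 0.62).

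The gene msl-2 (FBgn0005616, chromosome 2L, 3462218 to 3466112, minus strand) encodes the RING finger subunit that females do not make. Its mRNA was present in every library, with 542 and 841 counts in control against 971 and 841 in tumor. Control 2 and tumor 2 had equal rounded counts at different depths, and control 1 was the lowest of the 4. The log2 fold change was 0.34 ± 0.21 with a 95% interval from -0.24 to 0.91 (edgeR adjusted p = 0.26). None of its exon sequence lies outside other targets. Its counts made up 6.09% to 12.0% of its locus sum. In each library the largest count in that sum was that of ND-PDSW, a subunit gene of respiratory complex I that starts 44 bases away on the opposite strand. ND-PDSW fell from 5360 and 6633 counts to 3793 and 2987, and the locus sum of msl-2 fell by 0.43 (edgeR adjusted p = 0.0061), against the sign of the msl-2 value itself.

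The subunits that recognise and modify chromatin showed small differences. Exon sequence outside other targets was 0% for both msl-3 and mof, against 34.9% for msl-1 and 48.2% for mle. The chromodomain gene msl-3 (FBgn0002775, chromosome 3L, 7123213 to 7125533, minus strand) had 1067 and 1341 counts in control against 1355 and 1457 in tumor. Its log2 fold change was 0.16 ± 0.15, with a 95% interval from -0.25 to 0.57 (edgeR adjusted p = 0.43). The acetyltransferase gene mof (FBgn0014340, chromosome X, 5873840 to 5876853, minus strand) had 1717 and 1836 counts in control against 2167 and 1880 in tumor. Once scaled for depth, its genotypes overlapped, and the log2 fold change was 0.11 ± 0.14 with an interval from -0.26 to 0.48 (edgeR adjusted p = 0.55). It was -0.0015 under upper-quartile scaling.

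The RNA helicase gene mle (FBgn0002774, chromosome 2R, 5974857 to 5980778, minus strand), whose product loads roX RNA into the complex, was the most abundant member. It had 3927 and 4542 counts in control against 3884 and 3851 in tumor. On depth-scaled CPM the genotypes did not overlap, with 97.7 and 93.1 in control against 80.4 and 85.6 in tumor. The log2 fold change was -0.20 ± 0.08 with an interval from -0.42 to 0.02 (edgeR adjusted p = 0.11). The value turned positive with TPM values (0.043 at a pseudocount of 1) and when scaled on ribosomal protein genes (0.42, adjusted p = 0.028). With upper-quartile factors it was -0.31 and mle was called lower (adjusted p = 0.037). The locus sums of msl-3 (0.48, edgeR adjusted p = 0.031), mof (0.32, adjusted p = 0.021) and mle (0.37, adjusted p = 0.0082) rose, together with their neighbours form3, GAA1 and Src42A, each of which was called higher. For mle this is the opposite sign to its own count.

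**Figure D3:**
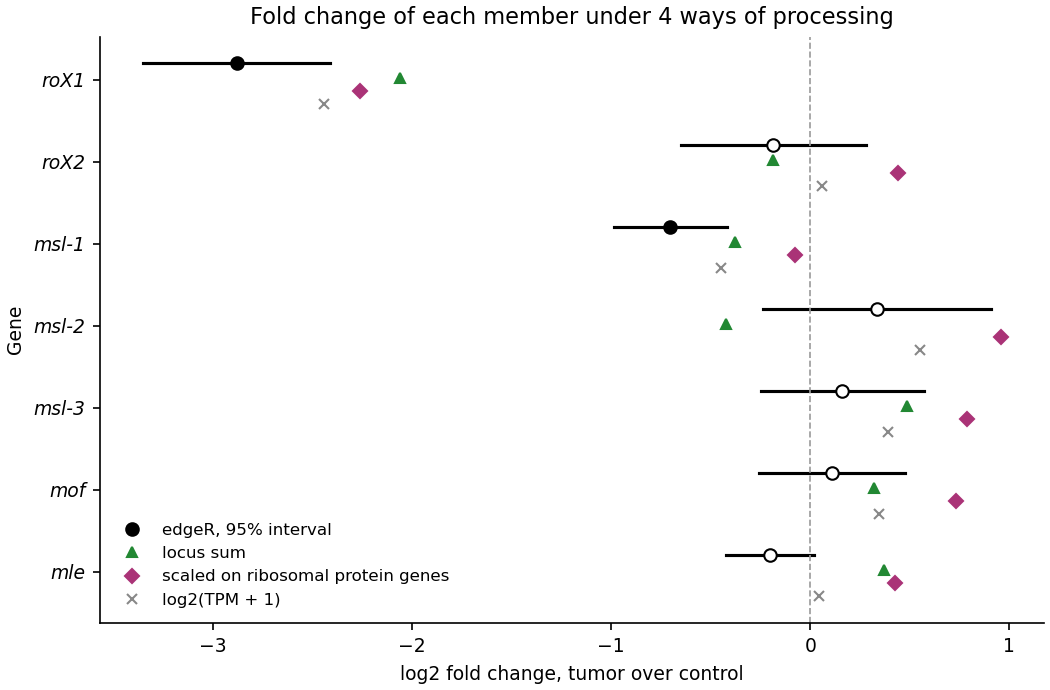
Log2 fold change, tumor over control, of each member from the edgeR fit with its 95% interval (circles, filled where the adjusted p is at most 0.05), from locus sums (triangles), with scaling on ribosomal protein genes (diamonds) and on log2(TPM + 1) (crosses). roX1 lies below -2 in all 4, msl-1 lies below 0 in all 4, and the other members change sign or stay within 1 log2 unit of 0.

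Of the 7 members, 2 were called, both lower and none higher. Over all 9402 genes tested, 44.6% were called, 21.2% lower and 23.4% higher, so the number called among the members is no larger than that background gives. On depth-scaled counts 6 of the 7 did not overlap between genotypes, 4 of them lower in tumor (38.8% of all genes) and 2 higher (40.8%). Over all genes 79.6% did not overlap, so that count says little about the members. The median log2 fold change was -0.18 over the members and 0.02 over all genes tested. On locus sums 3 members were lower and 3 higher, where 57.2% of all genes were called, 27.8% lower and 29.4% higher. The share of higher calls over all genes was 52.5% in the edgeR fit, 66.3% on log2(TPM + 1) and 82.8% under scaling on ribosomal protein genes. That last scaling moved the median of all genes by 0.62 on the log2 scale, and msl-2, msl-3, mof and mle were then called higher. Relative to the median of all genes, under that scaling, roX1 stood at -2.90, msl-1 at -0.72 and the other members between -0.22 and 0.32. Nearly the same values in the edgeR fit follow from the arithmetic, since other scaling factors shift all genes by about the same amount.

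The order of the levels also differed between genotypes. In control the deposited TPM ran from mle (60.0 ± 2.7, mean ± SD, n = 2) through msl-1 (51.5 ± 3.6), mof (35.9 ± 3.6), roX1 (34.5 ± 1.8), msl-3 (26.8 ± 0.4) and roX2 (21.4 ± 0.3) to msl-2 (12.2 ± 2.0). The values of mof and roX1 overlapped, and the other neighbours in this order did not. In tumor the order was mle (62.0 ± 5.7), mof (45.8 ± 0.1), msl-1 (37.5 ± 2.8), msl-3 (35.6 ± 5.3), roX2 (22.3 ± 1.0), msl-2 (18.2 ± 0.06) and roX1 (5.52 ± 0.46), with overlap between msl-1 and msl-3. TPM here divides by the whole target, flanks and introns included. Per kb of annotated exon, the control mean of depth-scaled CPM was 20.6 for mle, 14.9 for msl-1, 13.7 for msl-3, 13.4 for roX2, 13.3 for mof, 9.55 for roX1 and 4.0 for msl-2. On that scale roX1 was below roX2 already in control, so the order of the pair depends on the length used. In tumor it was 1.30 for roX1 and 11.8 for roX2.

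Genes that work with the complex fell more often than they rose, though not under every scaling. Of 14 cofactors and regulators tested, 7 fell and 2 rose, against 21.2% lower and 23.4% higher over all genes, and their median log2 fold change was -0.47. Under scaling on ribosomal protein genes 1 fell and 5 rose, with a median of 0.16, while 944 of all 9402 genes fell and 4531 rose. Without control 1 or control 2, fewer of them and fewer of all genes were called. Their median log2 fold change was then -0.46 and -0.43. The germline markers given above fell alongside, and their part in these values was not tested. Set2, the histone methyltransferase gene whose mark MSL3 recognises, had 9208 and 11539 counts in control against 4663 and 4946 in tumor (fitted log2 fold change -1.17 ± 0.10, edgeR adjusted p = 0.0030). JIL-1, for a histone H3 kinase enriched on the male X, had 5989 and 6599 against 3486 and 3382 (-0.95 ± 0.08, adjusted p = 0.0036), and its call ended under ribosomal protein scaling (adjusted p = 0.055). The nuclear pore gene Nup153 fell by 0.67 ± 0.08, a call that ended without control 1 (adjusted p = 0.050) and under ribosomal protein scaling (adjusted p = 0.75).

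The regulators that keep msl-2 off in females were expressed in all libraries. Sxl had 7462 and 10270 counts in control against 9183 and 8987 in tumor, with tumor libraries between the control ones. Its log2 fold change was -0.02 ± 0.10, with a 95% interval from -0.28 to 0.24 (edgeR adjusted p = 0.86), and its sign turned on the TPM scale and with library totals, ribosomal protein scaling or control 2 left out. Unr had 19238 and 26222 counts against 17211 and 15979 and was lower by the edgeR fit (-0.51 ± 0.10, adjusted p = 0.017). The Unr call ended when any single library was left out (adjusted p up to 0.087), on the TPM scale and under ribosomal protein scaling, where the value was 0.11. Clamp, a zinc finger gene whose product brings the complex to X-linked GA repeats, had 1975 and 2520 counts against 2393 and 2408 (0.03 ± 0.12, edgeR adjusted p = 0.84), and its sign also varied with scaling and with the library left out. The locus sum of Clamp rose by 0.69 (edgeR adjusted p = 0.0021).

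Pof rose most among the cofactors. Its product binds genes of chromosome 4 in a way likened to MSL binding on the X. Counts of Pof were 333 and 381 in control against 5531 and 5614 in tumor, with replicates close together and genotypes far apart. The log2 fold change was 3.89 ± 0.12 (edgeR adjusted p = 0.0011), 14.9-fold, and its locus sum rose by 1.64 (edgeR adjusted p = 3.0e-04). The splicing and translation regulator gene how also rose, from 2991 and 3454 to 6919 and 5129 counts (0.83 ± 0.13, edgeR adjusted p = 0.012), a call that ended without control 1 or control 2 (adjusted p up to 0.076).

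The NSL complex shares MOF with the MSL complex. Of 8 tested NSL subunits and associated genes 4 fell and none rose, against 21.2% lower and 23.4% higher over all genes. Their median log2 fold change was -0.42. Under ribosomal protein scaling 1 fell and 2 rose, with a median of 0.21, while 944 of all 9402 genes fell and 4531 rose. Fewer of the 8, and fewer of all genes, were called without control 1 or control 2, where the median was -0.44 and -0.45. The lowest value was that of dgt1, a subunit gene, with 3828 and 4503 counts in control against 1398 and 1250 in tumor (-1.72 ± 0.10, edgeR adjusted p = 0.0017), a call that held under all scalings tried and with each library left out. The zinc finger gene pzg (-0.83 ± 0.13, adjusted p = 0.010), Rcd5 (-0.51 ± 0.08, adjusted p = 0.010) and wds (-0.50 ± 0.10, adjusted p = 0.021) lost their edgeR calls without control 1 or control 2 (adjusted p up to 0.098) and under ribosomal protein scaling. Of the other acetyltransferase genes of the MYST family to which mof belongs, enok fell by 0.36 ± 0.08 (edgeR adjusted p = 0.027), a call lost with any library left out. CG1894 had 182 and 154 counts in control against 0 and 2 in tumor (edgeR adjusted p = 0.012), a call that ended without control 1 or control 2 (adjusted p up to 0.066). Tip60 was listed at 0 throughout, and whether its reads were counted under overlapping targets was not tested.

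**Figure D4:**
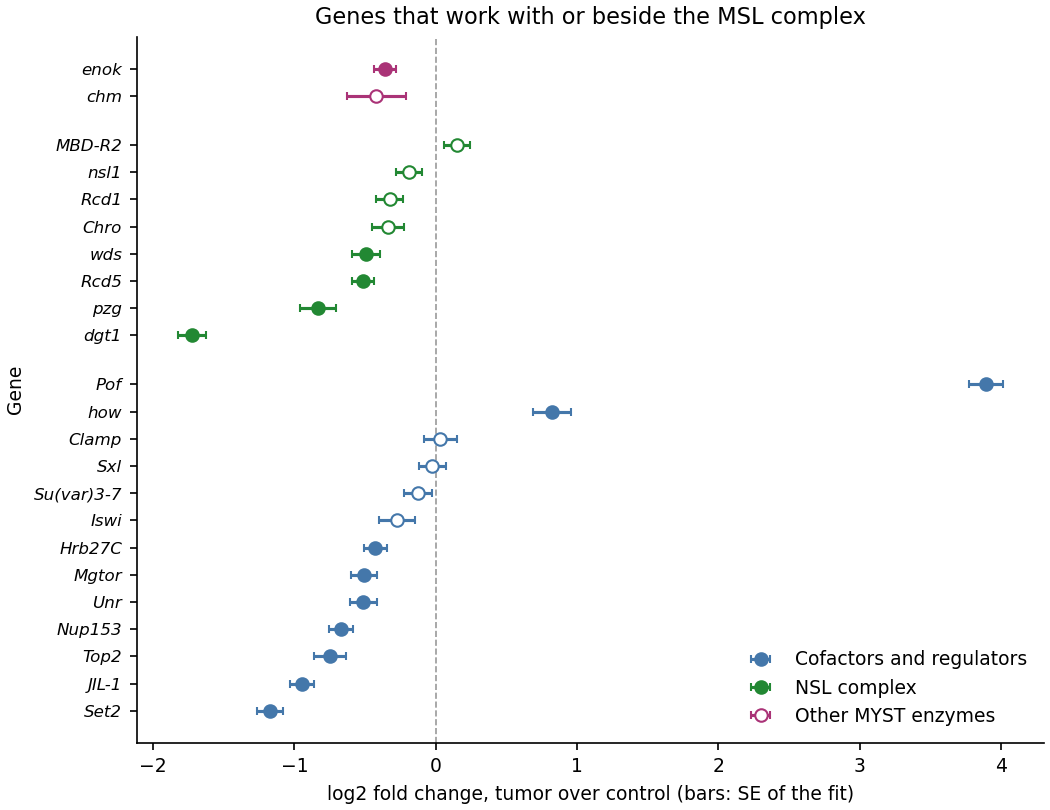
Log2 fold change of tumor against control, with its SE, of cofactors and regulators of dosage compensation (blue), NSL complex genes (green) and other MYST acetyltransferase genes (purple), filled where the adjusted p is at most 0.05. Pof stands apart at 3.89 and dgt1 lies lowest at -1.72. Trl and CG1894, whose SE exceeds 1, and Tip60, which was not tested, are left out.

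In the sex determination pathway above the complex, 3 of 15 tested genes rose and 3 fell. Over all genes 23.4% were higher and 21.2% lower. Under ribosomal protein scaling 12 of the 15 rose and 1 fell, while 4531 of all 9402 genes rose and 944 fell. Without that scaling the 15 genes had a median log2 fold change of -0.07. That median ran from -0.12 without control 1 to 0.04 without control 2. Fewer of the 15, and fewer of all genes, were called with a library left out. The splicing factor gene tra, which Sxl controls, had 2360 and 2723 counts in control against 2681 and 2413 in tumor (-0.07 ± 0.10, edgeR adjusted p = 0.62), and its sign turned on the TPM scale, with library totals and under ribosomal protein scaling. The files give 1 value per gene, so sex-specific splice forms of Sxl, tra and dsx were not seen apart. dsx, the last switch of the pathway, rose from 516 and 572 counts to 1957 and 2993 (2.12 ± 0.29, edgeR adjusted p = 0.0083), with a locus sum at 1.06, and its call ended without control 1 or control 2 (adjusted p up to 0.056). Ythdc1, a reader of modified RNA in Sxl splicing, rose by 1.11 ± 0.15 (edgeR adjusted p = 0.0080) while its locus sum fell by 0.26. The early sex gene dpn stood at 55 and 51 in control and at 0 in both tumor libraries (edgeR adjusted p = 0.012), a call that ended without control 1 or control 2. The splicing factor gene snf had 2 and 0 counts in control against 3078 and 3094 in tumor, but its locus sum fell by 1.70 (edgeR adjusted p = 2.4e-04). Its own count and that of its locus thus moved in opposite directions.

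The X chromosome is what the complex acts on in males, and its genes as a whole differed little from the autosomes. Of 1607 tested X-linked genes 20.5% were higher and 23.4% lower in tumor, and of 7590 genes on 2L, 2R, 3L and 3R 23.8% were higher and 20.9% lower. The median log2 fold change was -0.04 on X and 0.02 on those autosomes, a difference of -0.068. Between replicates, a difference of X and autosome medians was taken on log2(CPM + 1) of single libraries, without genes at 0 in both. It was 2.3e-04 for control and 0.028 for tumor. These are not fitted values, so they are not on quite the same measure as -0.068. The fitted difference stayed below 0 in each of 18 alternatives, from -0.11 to -0.0078. X-linked targets held 17.5% and 17.0% of all counts in control against 16.2% and 16.9% in tumor. This is a description of these libraries, since genes of an arm are not replicates, and germline and somatic cells were not measured apart. On the small chromosome 4, which Pof binds, 26 of 86 tested genes were higher (30.2%) and 8 lower (9.30%). Their median log2 fold change was 0.17. Chromosome 4 targets held 1.14% and 1.12% of all counts in control against 1.12% and 1.24% in tumor. Of all TPM they held 0.99% and 0.95% in control against 0.84% and 0.94% in tumor. Any part of Pof in these values was not tested.

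**Figure D5:**
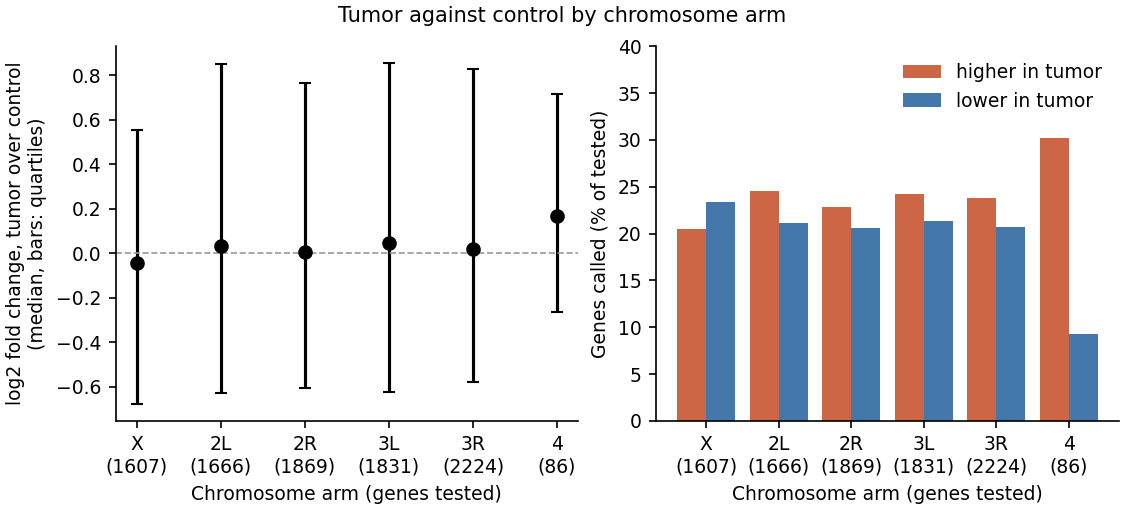
Left, median log2 fold change, tumor over control, of tested genes on each chromosome arm, with bars from the lower to the upper quartile. Right, the percentage of tested genes called higher or lower at an edgeR adjusted p of at most 0.05. The X chromosome has a median of -0.04 and chromosome 4 of 0.17, and quartile ranges overlap for all arms.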

How the data were processed

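All 4 libraries were used, with group and replicate number from the sample titles. The tool was kallisto, per the submitters' processing notes, with a version and genome build that the sources used here do not give. The authors deposited, per the file headers, estimated counts, which kallisto shares among targets, TPM, which divides them by effective length, and target lengths. Symbols matched 17668 of 17773 identifiers. Coordinates and exons come from the Ensembl annotation of BDGP6.54. A locus sum adds up all targets that contain any exon of a gene.

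After rounding to whole numbers, the estimated counts entered edgeR 4.0.16 in R 4.3.3 (filterByExpr, TMM factors, glmQLFit and glmQLFTest on genotype, two-sided), with Benjamini-Hochberg adjustment over 9402 genes and a threshold of 0.05. The biological coefficient of variation was 0.36, with 2 residual degrees of freedom. The SEs and intervals rest on a variance moderated over all genes tested, and are not the spread of a gene's own replicates alone. For roX2 the replicates were close (18.0 and 18.6 CPM in control, 16.1 and 16.0 in tumor), and the SE was 0.17. How reads were shared among overlapping targets is a further limit that the SEs and intervals do not measure. For msl-2 and mle the locus sum had the opposite sign to the gene's own count. The fitting steps were checked on simulated counts. Alternatives were other scalings, filters and thresholds, DESeq2 1.42.0, limma 3.58.1 (voom, and trend on log2 TPM at pseudocounts 0.1, 1 and 5), a replicate block, locus sums and leaving out each library. The TPM fits used the same genes unless said otherwise. Joins and figures used Python 3.11.15 with pandas 2.3.3 and matplotlib 3.10.9.

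Members and gene lists were chosen with earlier results of these data known. The text names all members, up to 4 called genes with the smallest adjusted p in each of the lists of cofactors, NSL, MYST and sex determination genes, and Sxl, Unr, Clamp and tra. The genes how, Tip60, ocn, aly, janB, betaTub85D, dj, tomb, Mst87F, fzo, Mst98Ca, ProtB, elav, Lsp1beta, Trl, stau, nanos, osk, otu, crq, srp, NimC1, Pxn, aPKC, Ras85D, yin, ec, CG11695, nod, pkm, ND-PDSW, form3, GAA1 and Src42A fall outside this rule and were named after their values were seen.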

Additional observations from a re-analysis of the deposited data

How the results depend on the processing

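roX1 kept its call in all 23 alternatives, among them its sums with ec and with yin. Scaling on ribosomal protein genes gave 4531 genes higher and 944 lower, with 4 members higher and 1 lower, and a threshold of 0.01 gave 992 and 851 genes, with 1 member lower. With each library left out in turn, 1095 to 1495 genes were higher, 760 to 1507 lower, and 1 to 2 members lower; the library left alone in its group is then assumed to vary like the other group. On log2(TPM + 1) with no filter 1 member was lower, and on locus sums 3 members were higher. The difference of X and autosome medians was -0.11 with no filter, -0.045 with a stricter filter, -0.032 at a TPM pseudocount of 5, -0.0078 on unfiltered log2(TPM + 1), and -0.084 to -0.050 with a library left out. roX2 turned to 0.44 under ribosomal protein scaling and to 0.057, 0.060 and 0.049 at TPM pseudocounts of 1, 0.1 and 5 (0.057 unfiltered). mle turned to 0.42, to 0.043, 0.043 and 0.040 (0.043 unfiltered) and, on locus sums, to 0.37. With upper-quartile factors mof was -0.0015 and mle was called lower (-0.31), and msl-2 was -0.43 on locus sums. The causes were not tested. Sums of roX1 with ec or with yin were added after the data were seen. Replicate numbers share only a number: the deviations of same-numbered libraries correlated at r = -0.017. With a replicate block, 1533 genes were higher and 1305 lower, and 2 members were lower and 0 higher.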

Other observations

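Genes with the level pattern most like a member were sought over the 4 libraries by Euclidean distance on log2(CPM + 1), where a small distance means a like level in every library. Nearest to roX1 was CG9747, at 0.41 log2 units, with 1802 and 2015 counts in control against 340 and 308 in tumor. Next came Ggt-1 at 0.50 and Rfk at 0.50. Nearest to roX2 was CG33172, at 0.094, with 699 and 873 counts in control against 815 and 713 in tumor. Nearest to msl-2 was CG10435, at 0.11, with 568 and 831 counts in control against 929 and 878 in tumor. With 4 libraries many genes share such a pattern, and nothing follows from it about shared function.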
